A study of Mus musculus with 8 samples.

Results

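The genes described here are 10 that mark whether a cell is built as an epithelium or as mesenchyme, out of 55401 in the deposited count table. They are Grhl2, Esrp1, Cdh1, Epcam, Cldn6, Rab25 and Prom2, which are used by epithelia, and Cdh2, Vim and Snai1, which are their mesenchymal counterparts. They were chosen by name from these roles, with earlier results of these data known. The share of them that changed, beside that of all genes, is therefore description only. Each symbol matched 1 row of the table, and all 10 had enough counts to be tested. RNA of the R1 line of mouse embryonic stem cells (ESCs) was sequenced in 8 poly(A)-selected libraries. Control ESCs, labelled WT, and knockout ESCs, labelled Zfp462 knockout, were grown on gelatin in serum medium with leukaemia inhibitory factor (LIF), and control and knockout embryoid bodies (EBs) were taken after 3 days as floating aggregates in Petri dishes. Each of these 4 groups had 2 libraries. Separate cultures are not stated for the libraries of a group, nor is the number of knockout clones. The p-values therefore rest on the spread among these libraries alone, and that spread may be technical.

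Epithelial cells hold to their neighbours through adherens and tight junctions and keep an apical and a basal side. The epiblast of the early embryo is epithelial in this sense, and the ESCs here carried much RNA of E-cadherin. In an epithelial-mesenchymal transition (EMT), cells lose E-cadherin and apical polarity and gain N-cadherin, vimentin and motility. Gastrulation in the mouse depends on such a transition, and transcription factors of the Snail, Zeb and Twist families drive it by repressing epithelial genes, while grainyhead factors and ESRP splicing regulators act on the epithelial side.

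Promoter sequences are shown for 4 of the 10 genes. Rab25 and Prom2 had the largest falls in knockout cells, Snai1 had the largest rise, and Epcam was called in neither knockout comparison. Each runs from 250 bases before to 50 bases after the annotated start, 5′ to 3′ on the strand of the gene, as given by RefSeq for GRCm38.p6, the build that mm10 names. Capitals mark matches on either strand to CAGGTG, an E-box that Snail and Zeb factors bind, or to AACCGG, part of the grainyhead site. These are matches of letters only.
Rab25 (chr3:88548230-88548529, minus strand): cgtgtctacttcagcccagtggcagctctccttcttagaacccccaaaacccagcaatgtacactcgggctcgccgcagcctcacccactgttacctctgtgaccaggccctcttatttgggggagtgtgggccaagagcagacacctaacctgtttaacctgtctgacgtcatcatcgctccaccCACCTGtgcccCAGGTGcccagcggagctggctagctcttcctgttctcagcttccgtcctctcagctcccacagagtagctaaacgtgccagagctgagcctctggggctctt
Prom2 (chr2:127541368-127541667, minus strand): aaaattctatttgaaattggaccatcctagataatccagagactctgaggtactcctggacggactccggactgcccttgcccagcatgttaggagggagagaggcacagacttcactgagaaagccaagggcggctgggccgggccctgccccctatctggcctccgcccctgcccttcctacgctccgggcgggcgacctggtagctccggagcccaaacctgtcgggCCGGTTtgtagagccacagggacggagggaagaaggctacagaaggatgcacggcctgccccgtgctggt
Snai1 (chr2:167537945-167538244, plus strand): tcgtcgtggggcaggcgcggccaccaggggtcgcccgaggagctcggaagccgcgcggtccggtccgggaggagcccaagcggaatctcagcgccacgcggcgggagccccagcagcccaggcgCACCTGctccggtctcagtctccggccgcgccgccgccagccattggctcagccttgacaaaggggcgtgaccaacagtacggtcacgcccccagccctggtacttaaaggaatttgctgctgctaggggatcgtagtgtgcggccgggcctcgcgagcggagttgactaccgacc
Epcam (chr17:87635729-87636028, plus strand): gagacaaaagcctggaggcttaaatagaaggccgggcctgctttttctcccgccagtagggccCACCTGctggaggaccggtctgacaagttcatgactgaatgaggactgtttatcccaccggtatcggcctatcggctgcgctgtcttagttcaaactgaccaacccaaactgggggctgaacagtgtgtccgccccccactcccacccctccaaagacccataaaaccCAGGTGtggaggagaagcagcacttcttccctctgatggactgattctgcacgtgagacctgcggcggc

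The E-box letters occurred in 20.2% and the grainyhead letters in 6.83% of the 32851 promoters of that table, and no match overlapped the other motif in the sequences shown. Rab25 held 2 E-box matches, the first bases of which lay at -64 and -53 relative to the start, and Epcam held 2, at -187 and -19. Snai1 held 1 E-box match, at -126. Prom2 held 1 grainyhead match, at -20, and no E-box match. Of the 6 members with an entry, Cldn6 also held 2 E-box matches, and Vim held neither motif.

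Library totals ranged from 12119763 to 16228426 counts, and 17125 genes were tested. Zfp462 RNA was still present in the knockout libraries, at 55.4% of the control level in ESCs and 72% in EBs, and no knockout library reached the lowest control library. Between the replicates of knockout ESCs, the log2 difference of a gene went with its GC content (correlation across genes 0.467), whereas in the other groups this value lay between -0.0321 and -0.00224. Levels are given as CPM, the count scaled to a library of fixed size. The summed level of 13 adult liver genes was 2220 CPM in knockout EB replicate 1 and at most 106 CPM in the other 7 libraries. The 9 general pluripotency markers all had at least 10 counts in every library. They summed to 4566 to 4616 CPM in control ESCs and 3394 to 3499 CPM in knockout ESCs. In EBs the sum was 3099 to 3236 CPM for control and 2965 to 2987 CPM for knockout.

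Summed markers of extraembryonic endoderm were higher in knockout cells at both stages. The summed level of 19 extraembryonic endoderm genes, of which 18 or 19 had at least 10 counts in every library, was 4068 to 4250 CPM in control ESCs and 14699 to 17503 CPM in knockout ESCs. It was 5107 to 5457 CPM in control EBs and 9967 to 10904 CPM in knockout EBs, and none of the 19 was at 0 in all libraries. The part of these cells in the results below was not tested, and in bulk RNA fewer cells of a type and less RNA per cell cannot be told apart. The 12 fibroblast markers summed to 36.7 to 46.8 CPM in every library, with S100a4 and Twist2 at 0 throughout. The 7 trophectoderm markers, which include Tfap2c, summed to 72.3 to 76.1 CPM in control ESCs and 33.6 to 35.7 CPM in knockout ESCs. The fall of Tfap2c alone in ESCs, given below, was larger than that of the sum, so the other markers together did not fall. The sum was 40.6 to 44.7 CPM in EBs, with Cdx2 and Elf5 under 10 counts in every library. The 8 mesoderm and primitive streak markers summed to 13.3 to 15.4 CPM in control ESCs and 17.5 to 19.4 CPM in knockout ESCs. In EBs their sum was 31.6 to 35.1 CPM for control and 35.6 to 37.3 CPM for knockout. The 4 surface ectoderm markers summed to 2.51 to 4.59 CPM over all libraries, with Krt5 and Trp63 under 10 counts in every one.

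Levels of different genes were compared per kilobase of exon, as CPM per kb. In control ESCs the order was Cdh1, Epcam, Cldn6, Vim, Esrp1, Grhl2, Rab25, Snai1, Cdh2 and Prom2. Cdh1, which encodes E-cadherin, stood at 116 ± 4.33 CPM per kb (mean ± SD, n = 2, as for all levels below) and was higher per kb than 97.9% of the genes tested. Cdh2, which encodes N-cadherin, stood at 0.683 ± 0.209 CPM per kb, at the 20th percentile (20.0% of genes at or below it). Vim, which encodes the intermediate filament vimentin, stood at 27.0 ± 0.252 CPM per kb, above Snai1 and Cdh2, the other mesenchymal genes in this order.

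**Figure D1:**
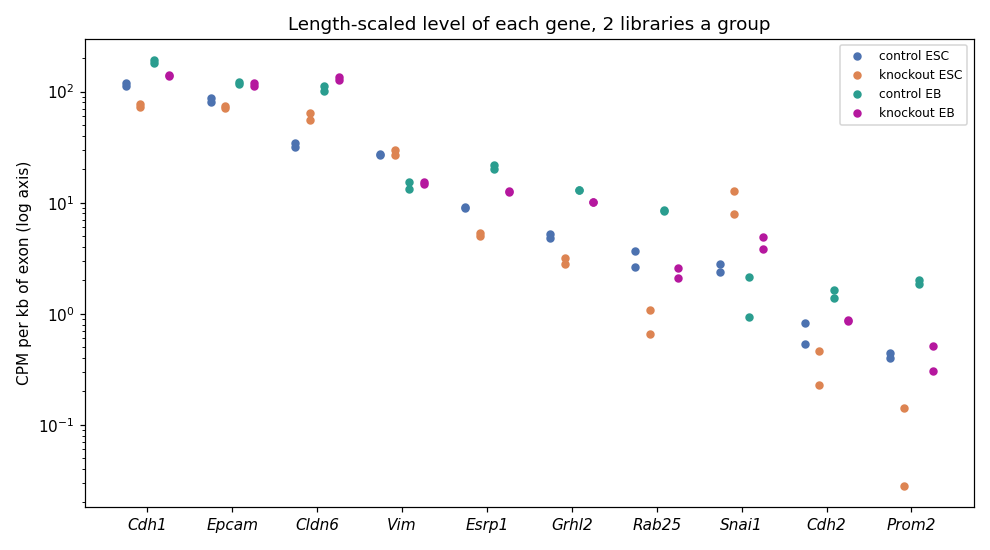
Length-scaled level (CPM per kb of exon, log axis) of the 10 genes, ordered by their level in control ESCs, with 1 point per library and a colour per group. Cdh1, Epcam and Cldn6 were the highest 3 in every group, and Cdh2 stood at 0.226 to 1.62 CPM per kb over the 8 libraries.

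The order changed between groups in a few places. Cdh1, Epcam and Cldn6 held the first 3 places in all 4 groups, but in knockout ESCs the libraries of Cdh1 (72.04 and 77.5 CPM per kb) overlapped those of Epcam (71.1 and 74.3). Snai1 had place 8 in control ESCs, where its libraries overlapped those of Rab25, and place 5 in knockout ESCs, above Esrp1 and Grhl2. In control EBs Snai1 could not be ranked against Prom2 or Cdh2, since its libraries (0.941 and 2.13 CPM per kb) spanned both, while the Prom2 libraries lay above those of Cdh2. The remaining neighbours in each group had libraries that did not overlap. Per kb, Cdh1 exceeded Cdh2 by 144- and 212-fold in the 2 control ESC libraries and by 157- and 343-fold in the knockout ESC ones. The ratio was 118 and 132 for control EBs, and 158 and 166 in knockout EBs, so E-cadherin RNA was far above N-cadherin RNA in every library.

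The first comparison asked what the Zfp462 knockout changed in ESCs. Of the 10 genes, 5 fell and 2 rose in knockout ESCs by edgeR's quasi-likelihood test, where a gene is called if its p, adjusted over all 17125 genes, is below 0.05. Of all genes tested 14.5% were called (6.2% lower and 8.3% higher). The epithelial genes Cdh1, Esrp1, Grhl2, Rab25 and Prom2 fell, and Snai1 and the tight junction gene Cldn6 rose. Cdh2, Epcam and Vim did not pass. The median log2 difference of the 10 was -0.69, against -0.03 over all genes tested.

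**Figure D2:**
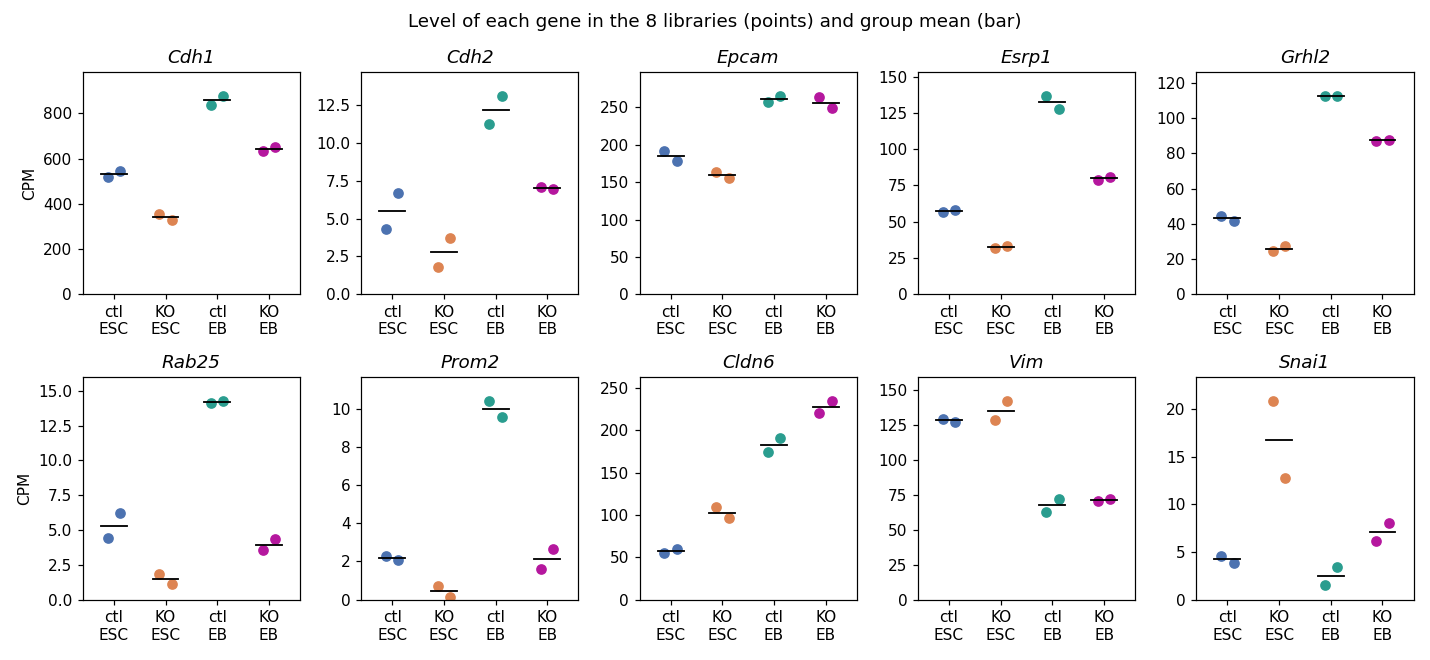
Level in CPM (linear axis from 0, a scale per gene) of each gene in the 8 libraries, as 2 points per group with a bar at the mean. Cdh1, Cdh2, Esrp1, Grhl2, Rab25 and Prom2 were lower in both knockout libraries than in both controls of the same stage. Snai1 and Cldn6 were higher in both. Such separation carries no test.

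Among the regulators, Grhl2, a grainyhead transcription factor that maintains junction genes in mouse epithelia, stood at 44.5 and 41.8 CPM in control ESCs and at 24.4 and 27.6 CPM in knockout ESCs. The groups did not overlap, and the level fell to 60.2% of control (log2 change -0.73 ± 0.10, estimate ± SE, adjusted p = 0.00101). Separation of 2 libraries from 2 can also arise without a difference, and its share over all genes was not counted. Esrp1, which directs epithelial splicing, stood at 56.7 and 58.1 CPM in control and 31.6 and 33.4 CPM in knockout ESCs, again without overlap (-0.82 ± 0.10, adjusted p = 0.000343). Snai1, a zinc finger repressor of Cdh1, stood at 4.56 and 3.87 CPM in control and 20.9 and 12.7 CPM in knockout ESCs. Both knockout libraries were higher, though they differed from each other more than the controls did, and the rise was 3.99-fold (2.00 ± 0.35, adjusted p = 0.00378). Leaving out control ESC replicate 1 ended the Snai1 call (adjusted p = 0.0581), as did leaving out control ESC replicate 2 (0.0955).

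Of the adhesion genes, Cdh1 stood at 519 and 547 CPM in control ESCs and at 355 and 329.5 CPM in knockout ESCs. Both knockout libraries were lower, and the level fell to 64.2% of control (-0.64 ± 0.08, adjusted p = 0.000359). Cldn6, a claudin of embryonic epithelia, moved the other way, from 55.0 and 59.7 CPM to 109.5 and 96.2 CPM (0.84 ± 0.10, adjusted p = 0.000481), with no overlap. Epcam, a surface glycoprotein of epithelia and of ESCs, stood at 191 and 178 CPM in control and 163 and 156 CPM in knockout ESCs. Its libraries did not overlap either, but the difference of -0.21 ± 0.09 did not pass (adjusted p = 0.135), and it did without knockout ESC replicate 1 (0.0255). Cdh2 stood at 4.32 and 6.70 CPM in control and 1.82 and 3.71 CPM in knockout ESCs. The knockout values were the lower ones for this mesenchymal cadherin too, with a difference of -1.001 ± 0.34 that did not pass (adjusted p = 0.078). It passed without knockout ESC replicate 2 (0.00944), with the GC trend removed (0.0224) and without the low-count filter (0.0218).

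Rab25 and Prom2, both weakly expressed, had the largest falls of the 10 genes. Rab25, a small GTPase of the RAB11 family that recycles cargo to the apical side, stood at 4.40 and 6.20 CPM in control and 1.82 and 1.09 CPM in knockout ESCs. It fell to 27.4% of control (-1.87 ± 0.31, adjusted p = 0.00281), a call lost without control ESC replicate 2 (0.0523). Prom2, a prominin of plasma membrane protrusions, stood at 2.28 and 2.09 CPM in control and 0.729 and 0.146 CPM in knockout ESCs, where the libraries held 10 and 2 counts. Both knockout libraries were lower, but its size is poorly determined (-2.29 ± 0.53, adjusted p = 0.0161), and the call was lost without control ESC replicate 1 (0.109), control ESC replicate 2 (0.109) or control EB replicate 1 (0.05), and with only the ESC libraries fitted (0.0769). The log2 change was -3.83 without knockout ESC replicate 1 and -1.57 without knockout ESC replicate 2. Vim stood at 129 and 127 CPM in control and 128 and 142 CPM in knockout ESCs. Its groups overlapped, and the difference was 0.08 ± 0.10 (adjusted p = 0.669).

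The second comparison asked what the knockout changed in day 3 EBs. Of the 10 genes, 5 were lower and 1 was higher in knockout EBs, while 6.8% of all genes tested were called (2.04% lower and 4.75% higher). Cdh1, Esrp1, Grhl2, Rab25 and Prom2 were lower, Snai1 was higher, and Cdh2, Epcam, Cldn6 and Vim did not pass. The median log2 difference was -0.39, against 0.00 over all genes tested. The knockout EB library with liver transcripts lay close to the other knockout EB library for most of the 10. Cdh1, for example, stood there at 635 CPM against 652 CPM, and Esrp1 at 78.7 against 81.1 CPM.

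Among the regulators, Esrp1 stood at 137 and 128 CPM in control EBs, and its knockout EB level was 60.4% of control (-0.73 ± 0.09, adjusted p = 0.0012). Grhl2 stood at 112 and 113 CPM in control and 87.0 and 87.5 CPM in knockout EBs. Replicates were close and the groups did not overlap, but the difference was small (-0.37 ± 0.10, adjusted p = 0.0485). DESeq2 did not call it (0.0532), the replicate block ended the call (0.0744), and so did leaving out any one library other than the knockout ESC ones (0.116 to 0.354). Snai1 stood at 1.53 and 3.45 CPM in control and 6.18 and 7.99 CPM in knockout EBs. Both knockout libraries were higher, by 2.88-fold (1.53 ± 0.38, adjusted p = 0.0389; 0.0572 with the replicate block and 0.051 with a filter at a mean of 1 CPM), though control EB replicate 1 held only 23 counts. The log2 difference was 1.03 without control EB replicate 1 and 2.21 without control EB replicate 2. The Snai1 call was lost without any of control EB replicate 1 (0.3), knockout EB replicate 1 (0.0784), knockout EB replicate 2 (0.175), control ESC replicate 1 (0.102) or control ESC replicate 2 (0.102).

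Of the adhesion genes, Cdh1 stood at 836 and 878 CPM in control EBs, and both knockout EB libraries were lower, at 75.1% of control (-0.41 ± 0.07, adjusted p = 0.00916). Leaving out any EB library ended that call, at an adjusted p of 0.0773 for control EB replicate 1, 0.0936 for control EB replicate 2, 0.119 for knockout EB replicate 1 and 0.0622 for knockout EB replicate 2. Cldn6 stood at 175 and 191.5 CPM in control and 221 and 235 CPM in knockout EBs. The knockout values were higher without overlap, but 0.31 ± 0.10 did not pass (adjusted p = 0.0939), and it did with the GC trend removed (0.00834), in the EB libraries alone (0.0121), without knockout ESC replicate 1 (0.00989) or without knockout ESC replicate 2 (0.0104). Epcam stood at 257 and 265 CPM in control and 263 and 249 CPM in knockout EBs, which overlapped (-0.03 ± 0.08, adjusted p = 0.882). Cdh2 stood at 11.2 and 13.1 CPM in control and 7.08 and 6.92 CPM in knockout EBs. It lay lower in both knockout libraries, and -0.79 ± 0.31 did not pass (adjusted p = 0.159), except without knockout ESC replicate 1 (0.0429), without knockout ESC replicate 2 (0.0426), in the EB libraries alone (0.0208) or with both the GC trend removed and the replicate block (0.0443).

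Rab25 and Prom2 again had the largest differences. Rab25 stood at 14.1 and 14.3 CPM in control and 3.54 and 4.34 CPM in knockout EBs, which was 27.8% of control (-1.85 ± 0.27, adjusted p = 0.00318; 0.0565 without control EB replicate 1). Prom2 stood at 10.4 and 9.57 CPM in control and 1.58 and 2.66 CPM in knockout EBs, which was 21.3% of control (-2.23 ± 0.40, adjusted p = 0.00831). Neither gene overlapped between the groups. For Rab25 the higher knockout EB library (4.34 CPM) was close to the lower control ESC library (4.40 CPM), and these groups were not tested against each other. For Prom2, leaving out control EB replicate 1 (adjusted p = 0.137), its replicate 2 (0.0812) or knockout EB replicate 1 (0.075) ended the call. Vim stood at 62.9 and 72.1 CPM in control and 70.2 and 72.1 CPM in knockout EBs, with overlap (0.08 ± 0.10, adjusted p = 0.728).

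**Figure D3:**
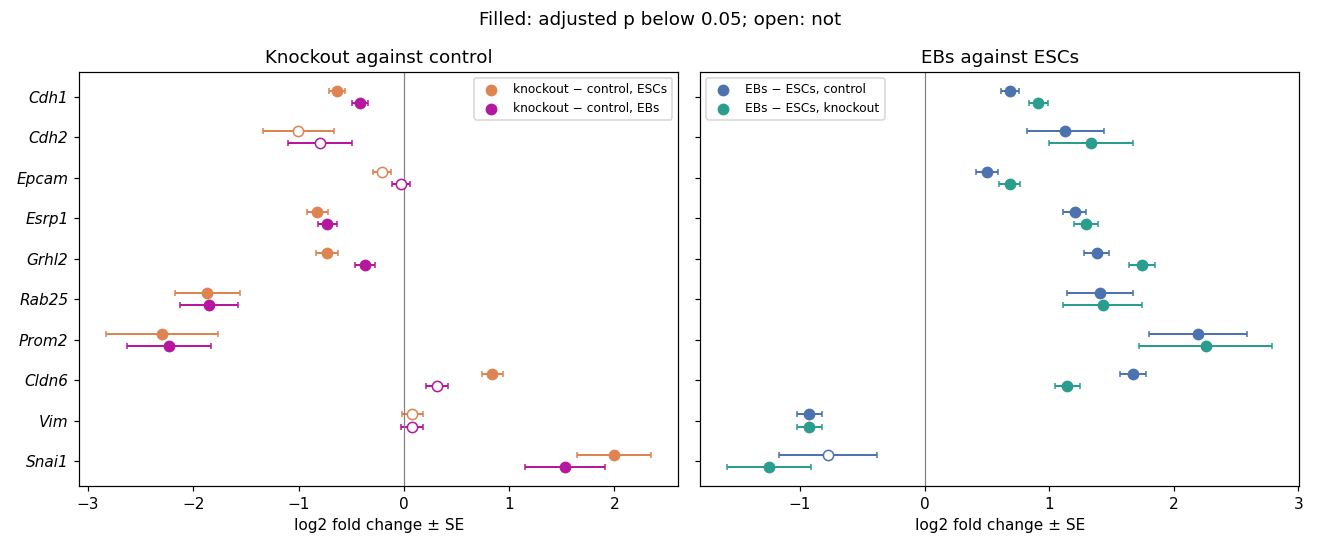
Log2 fold change ± SE of each gene for knockout against control (left) and EBs against ESCs (right), filled where edgeR's quasi-likelihood test called the gene. In knockout cells Rab25 and Prom2 lay near -2 at both stages and Vim near 0, and in EBs every gene but Vim and Snai1 rose.

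The effect of the knockout was compared between the stages in the same fit. None of the 10 genes differed by edgeR's quasi-likelihood test, and none by DESeq2, while edgeR called 1.38% of all genes tested (0.742% higher and 0.642% lower). At an unadjusted p below 0.05 there were 2, Cldn6 and Grhl2, and neither passed after adjustment. Cldn6 had a smaller rise in EBs than in ESCs (difference -0.53 ± 0.14, adjusted p = 0.133), and it was called with the GC trend removed (0.0124), without the low-count filter (0.0361), without knockout ESC replicate 1 (0.0405) or without knockout ESC replicate 2 (0.0115). For Grhl2 the estimated fall was smaller in EBs, but the difference did not pass (0.37 ± 0.14, adjusted p = 0.316). It was 0.46 without knockout ESC replicate 2. Cdh1, with an unadjusted p of 0.058, had an estimate in the same direction that did not pass either (0.23 ± 0.11, adjusted p = 0.427). It was 0.30 without knockout ESC replicate 1. For Rab25 the difference between the stages was 0.02 ± 0.34 and for Prom2 0.06 ± 0.53, with wide intervals for both.

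The last comparisons asked how the genes changed over 3 days of EB culture in control and in knockout cells. In control cells 8 of the 10 rose and 1 fell, while 18.2% of all genes tested were called (8.6% higher and 9.63% lower), and in knockout cells 8 rose and 2 fell, with 15.3% called over all genes (8.23% higher and 7.11% lower). Grhl2, Esrp1, Cdh1, Epcam, Cldn6, Rab25, Prom2 and Cdh2 rose in each, and Vim fell in each. These comparisons share libraries with the knockout comparisons above and are not independent of them.

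Grhl2 rose 2.61-fold in control cells (log2 change 1.38 ± 0.10, adjusted p = 1.13e-05) and 3.36-fold in knockout cells (1.75 ± 0.10, adjusted p = 6.31e-06). Esrp1 rose 2.30-fold in control and 2.46-fold in knockout cells, and Cdh1 1.61-fold and 1.88-fold. Even after the rise, knockout EBs held less of these 3 RNAs than control EBs, though more than control ESCs. Cldn6 rose 3.19-fold in control (1.67 ± 0.10, adjusted p = 5.71e-06) and 2.21-fold in knockout cells (1.15 ± 0.10, adjusted p = 7.58e-05). Epcam rose 1.42-fold in control cells, a call lost without control ESC replicate 2 (adjusted p = 0.07), and 1.60-fold in knockout cells.

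Prom2 had the largest rise, 4.57-fold in control (2.19 ± 0.39, adjusted p = 0.00399) and 4.77-fold in knockout cells (2.26 ± 0.54, adjusted p = 0.0192). Without knockout ESC replicate 1 the log2 change in knockout cells was 3.80, and without knockout ESC replicate 2 it was 1.53. Its knockout EB libraries (1.58 and 2.66 CPM) lay on either side of the control ESC ones (2.28 and 2.09 CPM). Rab25 rose 2.66-fold in control (adjusted p = 0.00502) and 2.69-fold in knockout cells (adjusted p = 0.015). Some calls of these weakly expressed genes were lost with 1 library left out, which also leaves fewer libraries to estimate the spread. Without any one control library, the log2 change of Prom2 in knockout cells stayed at 2.26. In control cells Prom2 was lost without control EB replicate 1 (0.0635), control ESC replicate 1 (0.0725) or control ESC replicate 2 (0.0974), and Rab25 without either control EB library (0.0517 for replicate 1 and 0.0514 for replicate 2) or control ESC replicate 1 (0.0834). In knockout cells Prom2 was lost without knockout EB replicate 2 (0.129) and, at 0.0544 to 0.0555, without any of the 4 control libraries, and Rab25 without knockout EB replicate 2 (0.0932) or knockout ESC replicate 2 (0.0506).

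On the mesenchymal side the 3 genes did not move together. Cdh2 rose 2.19-fold in control (1.13 ± 0.31, adjusted p = 0.0298) and 2.52-fold in knockout cells (1.34 ± 0.34, adjusted p = 0.0247). Vim fell to 52.7% in control (-0.92 ± 0.10, adjusted p = 0.000199) and 52.6% in knockout cells (-0.93 ± 0.10, adjusted p = 0.000269). Snai1 fell in knockout cells (-1.24 ± 0.34, adjusted p = 0.0332), while in control cells its libraries were lower in EBs with a difference of -0.77 ± 0.39 that did not pass (adjusted p = 0.2), though it did with the GC trend removed (0.0384). The Cdh2 call in control was lost without any 1 of the 4 control libraries (0.09 to 0.246). In knockout cells its log2 change was 0.93 without knockout ESC replicate 1 and 1.94 without knockout ESC replicate 2, and the call was lost without either knockout EB or either control EB library (0.0584 to 0.0987), and the Snai1 call without knockout ESC replicate 1 (0.12), either knockout EB library (0.0774 and 0.198) or either control ESC library (0.0857 and 0.086).

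Relatives and known regulators of the 10 genes were read in the same fit. Prom1, the other prominin, stood at 12.1 ± 0.483 CPM in control and 4.73 ± 0.509 CPM in knockout ESCs (-1.35 ± 0.16, adjusted p = 0.000431). It was lower in knockout EBs as well (-0.60 ± 0.14, adjusted p = 0.0305), so both prominin genes fell. Rab11a, a broadly expressed relative of Rab25, rose in knockout ESCs from 50.6 ± 3.82 to 80.8 ± 3.56 CPM (0.68 ± 0.10, adjusted p = 0.00111), opposite to Rab25. In EBs its difference was 0.35 ± 0.10 (adjusted p = 0.0585).

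Of the other grainyhead genes, Grhl3 fell in knockout ESCs (-0.68 ± 0.16, adjusted p = 0.0193) and was near control in knockout EBs (-0.03 ± 0.17, adjusted p = 0.934). Grhl1 had differences of -0.65 ± 0.20 in ESCs and -0.71 ± 0.19 in EBs, neither of which passed (adjusted p = 0.0532 and 0.0553). Esrp2, the relative of Esrp1, had 0.13 ± 0.19 in ESCs and -0.01 ± 0.19 in EBs (adjusted p = 0.728 and 0.99). Cdh3, which encodes P-cadherin and ends 46.1 kb before Cdh1 on chromosome 8, fell in knockout ESCs (-0.89 ± 0.19, adjusted p = 0.0101) and had -0.02 ± 0.18 in EBs (adjusted p = 0.973). Cldn7, another claudin, had -0.05 ± 0.15 in ESCs and -0.15 ± 0.14 in EBs (adjusted p = 0.884 and 0.595). Cldn9, which lies on the opposite strand with its end 0.137 kb from the end of Cldn6, stayed at a mean of at most 1.14 CPM in every group, and neither knockout comparison called it.

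Among the repressors, Zeb1 stood at 16.0 ± 1.28 CPM in control and 15.9 ± 1.22 CPM in knockout ESCs, and its difference was -0.00 ± 0.18 (adjusted p = 0.991). In EBs it was higher in the knockout, at 8.63 ± 1.11 against 5.002 ± 0.135 CPM (0.79 ± 0.20, adjusted p = 0.0411), and the difference between stages did not pass (0.79 ± 0.27, adjusted p = 0.238). Zeb1 fell over EB culture in control (-1.67 ± 0.19, adjusted p = 0.000286) and in knockout cells (-0.88 ± 0.19, adjusted p = 0.0115). Zeb2, Snai2 and Twist1 stood at means of at most 1.82, 1.04 and 5.83 CPM and were not called in either knockout comparison (adjusted p from 0.391 to 0.892). Ovol2, an epithelial repressor of Zeb1, rose over EB culture in control cells (1.08 ± 0.27, adjusted p = 0.0219) and did not pass in either knockout comparison (adjusted p = 0.968 and 0.683). Of Snai1, Snai2, Zeb1, Zeb2 and Twist1, only Snai1 was called in knockout ESCs. Several of these calls were lost in other fits or with 1 library left out, which leaves fewer libraries to estimate the spread. Zeb1 in EBs was lost in DESeq2 (0.0765), with the replicate block (0.0587), and without any one library other than the knockout ESC ones at an adjusted p of 0.081 to 0.299, as was Prom1 in EBs at 0.0758 to 0.248. Without control ESC replicate 1 or 2, the ESC calls of Grhl3 (0.0973 and 0.196) and Cdh3 (0.0785 and 0.128) were lost. Ovol2 was lost in DESeq2 (0.0738) and without any one control library (0.0579 to 0.165). With only the libraries of the groups compared in edgeR's fit, the ESC calls of Grhl3 (0.0755) and Cdh3 (0.0528) were lost. The call of the Zeb1 fall over EB culture in knockout cells was lost there too (0.062). With the GC trend removed, Grhl1 was called lower in ESCs (0.0176) and EBs (0.0175) and Rab11a higher in EBs (0.0142).

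Longer lists showed how far these changes extended among genes of the same kinds. The shares of all genes tested that were called, 14.5% in ESCs (6.2% lower and 8.3% higher) and 6.8% in EBs (2.04% lower and 4.75% higher), are the background of each count. Of 28 junction genes, 7 fell and 2 rose in knockout ESCs (median log2 difference -0.12). The claudin gene Cldn4 fell from 50.4 ± 3.2 to 22.8 ± 7.75 CPM (-1.14 ± 0.20, adjusted p = 0.00361). The desmosomal cadherins Dsg2 (0.60 ± 0.10, adjusted p = 0.00245) and Dsc2 (1.16 ± 0.24, adjusted p = 0.00941) were the 2 that rose. In knockout EBs 1 of the 28 junction genes was lower and 2 were higher, a share near the 6.8% of all genes (median -0.05), the lower one being the tight junction gene Cgn (-0.48 ± 0.11, adjusted p = 0.0234) and the higher ones the desmosome genes Pkp2 (0.47 ± 0.10, adjusted p = 0.0203) and Dsg2 (0.40 ± 0.10, adjusted p = 0.0372).

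Of 20 polarity and traffic genes, 3 fell and 3 rose in knockout ESCs (median -0.10). Prom1 and the membrane-cytoskeleton linker Ezr fell (-0.54 ± 0.09 for Ezr, adjusted p = 0.00331), and the motor gene Myo5b, a partner of RAB11 proteins, rose from 8.93 ± 1.35 to 21.1 ± 0.541 CPM (1.23 ± 0.17, adjusted p = 0.000759). In knockout EBs Myo5b was higher (1.01 ± 0.16, adjusted p = 0.00432), Prom1 lower and the other 18 not called, again near the share of all genes (median -0.02). Of the 20 epithelial regulator and surface genes, 18 were tested. Tfap2c, an AP-2 transcription factor used in trophoblast, fell from 58.6 ± 2.12 to 14.4 ± 2.08 CPM in knockout ESCs (-2.02 ± 0.15, adjusted p = 1.94e-05), Grhl3 fell and none rose (median -0.12). By unadjusted p 4 fell and none rose, and DESeq2 called 2 falls and no rise. In knockout EBs edgeR's quasi-likelihood test called none of the 18 (median -0.07), with 3 higher and 2 lower at an unadjusted p below 0.05 and 1 of each by DESeq2.

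**Figure D4:**
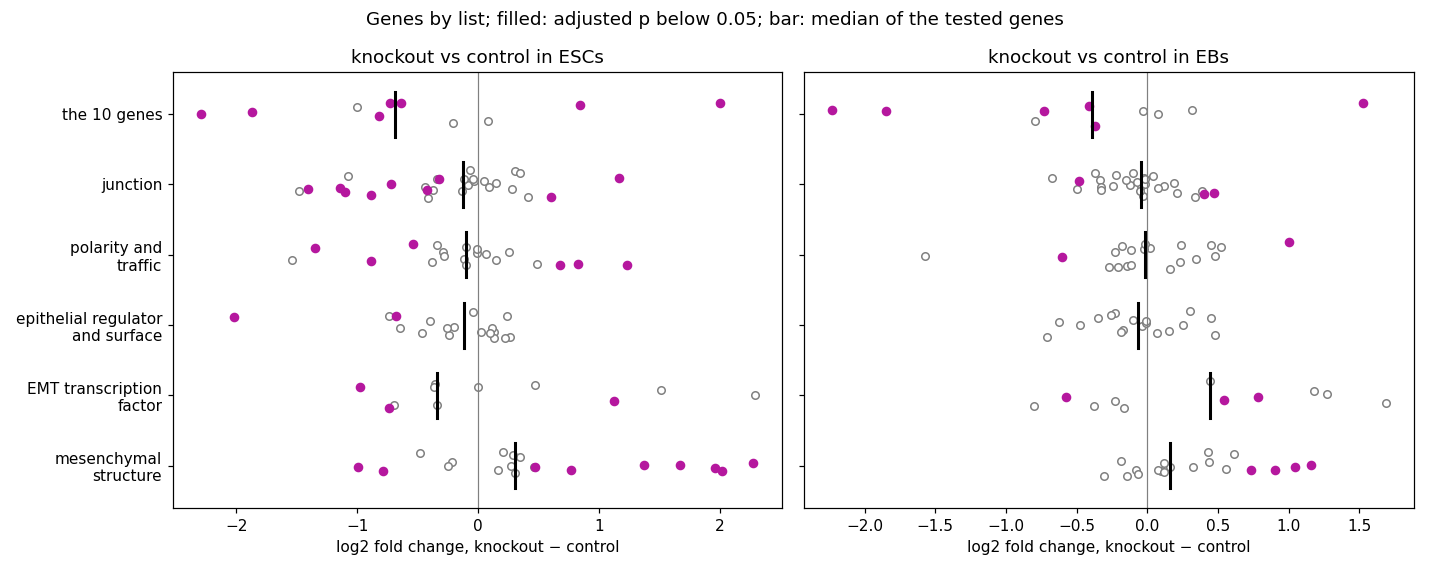
Log2 fold change, knockout against control, of the 10 genes and of the tested genes of each list in ESCs (left) and EBs (right), filled where the adjusted p is below 0.05, with a bar at the median. The 10 genes had a median of -0.69 in ESCs and the mesenchymal structure genes 0.30.

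Of the 15 other EMT transcription factors, 11 were tested, and in knockout ESCs 1 rose and 2 fell (median -0.34). Hmga2, an architectural chromatin protein, rose from 42.0 ± 4.75 to 91.6 ± 2.15 CPM (1.122 ± 0.12, adjusted p = 0.000232). Sox4 fell (-0.74 ± 0.13, adjusted p = 0.00428), as did Snai3 (-0.98 ± 0.29, adjusted p = 0.0474). In knockout EBs 2 were higher and 1 lower (median 0.44), namely Zeb1, Hmga2 (0.54 ± 0.13, adjusted p = 0.0303) and, lower, Sox4 (-0.57 ± 0.13, adjusted p = 0.023). DESeq2 gave the opposite balance, with 1 higher and 2 lower.

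Of 26 mesenchymal structure genes, 19 were tested, since genes of fibroblasts and smooth muscle such as Acta2, Tagln, Postn and Col3a1 were almost without counts. In knockout ESCs 7 rose and 2 fell (median 0.30). Sparc, a matrix protein that is also in the extraembryonic endoderm list, rose from 842 ± 8.32 to 3266 ± 145 CPM (1.96 ± 0.08, adjusted p = 7.92e-07), and the collagen cross-linking enzyme Loxl2 rose from 34.0 ± 3.21 to 107.5 ± 9.71 CPM (1.66 ± 0.12, adjusted p = 1.47e-05). Cdh6, another cadherin, rose (2.01 ± 0.21, adjusted p = 0.000164), and so did the hyaluronan receptor Cd44 (2.27 ± 0.29, adjusted p = 0.000542). Fibronectin (Fn1) went the other way, from 1263 ± 5.26 to 633 ± 172 CPM (-0.997 ± 0.14, adjusted p = 0.0011). In knockout EBs 4 were higher and none lower (median 0.16; 7 higher and none lower at an unadjusted p below 0.05, and 5 and none by DESeq2). These were Sparc (0.90 ± 0.08, adjusted p = 0.00017), Loxl2 (0.74 ± 0.12, adjusted p = 0.00514), Itgb3 (1.16 ± 0.23, adjusted p = 0.0153) and Cdh6 (1.04 ± 0.21, adjusted p = 0.0177). The extraembryonic endoderm markers given above were higher in the same libraries. List counts moved with single libraries: junction genes called in knockout ESCs numbered from 1, without control ESC replicate 1, to 15, without knockout ESC replicate 1, and mesenchymal structure genes from 5 to 9 for the same 2 libraries. In knockout EBs leaving out control EB replicate 1 gave 0 junction and 1 mesenchymal structure call.

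Over EB culture the list counts are set against 18.2% of all genes called in control and 15.3% in knockout cells. In control cells 11 of 20 polarity and traffic genes rose and 1 fell (median 0.43), and in knockout cells 10 rose and 2 fell (median 0.45). Prom1 rose 2.85-fold in control and 4.79-fold in knockout cells. Of 28 junction genes 8 rose and 3 fell in control (median 0.12) and 8 rose and 2 fell in knockout cells (median 0.46), with Cldn7 up by 1.46 ± 0.15 (adjusted p = 0.000102) and 1.36 ± 0.15 (adjusted p = 0.000245) on the log2 scale. Of 18 epithelial regulator and surface genes, 4 rose and 3 fell in control (median 0.22), and 3 rose and 2 fell in knockout cells (median 0.40). Tfap2c fell by 2.55 ± 0.16 in control on the log2 scale (adjusted p = 5.42e-06). Of 19 mesenchymal structure genes 2 rose and 7 fell in control (median -0.12), among them Itgb3 (-1.39 ± 0.23, adjusted p = 0.00249), and 2 rose and 8 fell in knockout cells (median -0.49). Of 11 EMT transcription factors 2 rose and 2 fell in control (median -0.55), and 1 rose and 2 fell in knockout cells (median -0.46). These counts moved with single libraries. Junction calls ranged from 4, without control EB replicate 2, to 17, without knockout ESC replicate 1, in control cells, and from 4, without knockout EB replicate 2, to 23, without knockout ESC replicate 1, in knockout cells. Leaving out the same libraries, epithelial regulator and surface calls ranged from 2 to 12 in control and from 0 to 11 in knockout cells. Polarity and traffic calls ranged from 3 to 16 in control and 3 to 17 in knockout cells, mesenchymal structure calls from 1 to 11 and 4 to 13, and EMT transcription factor calls from 2 to 6 and 2 to 4.

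The genes most like Cdh1 in profile were Tfap4, Rab34 and Ccnd1, out of 10646 tested genes that had a name and averaged 5 CPM or more. Likeness was the root-mean-square difference of log2 CPM over the 8 libraries, each gene centred on its mean, and it was 0.05 for Tfap4, 0.07 for Rab34 and 0.08 for Ccnd1. Tfap4, a helix-loop-helix transcription factor, stood at 25.2 CPM in control ESCs, 15.2 in knockout ESCs, 40.1 in control EBs and, in the knockout, 29.5. Ccnd1, which encodes cyclin D1, stood at 92.0, 55.1, 153.6 and 105 CPM in the same order. For Cdh2 the nearest were Mup6 (0.19), Aff3 (0.23) and Snhg14 (0.25). Mup6 belongs to a family of near-identical copies between which the counting could split reads, so its value is uncertain. These likenesses describe 8 libraries that share 4 groups and carry no test.

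In mm10, all 10 are protein-coding genes. Cdh1 (ENSMUSG00000000303.12) lies on chromosome 8 from 106603351 to 106670246 on the plus strand, Grhl2 (ENSMUSG00000022286.16) on chromosome 15 from 37233036 to 37363569 and Esrp1 (ENSMUSG00000040728.15) on chromosome 4 from 11331933 to 11386783. Rab25 (ENSMUSG00000008601.12) lies on chromosome 3 from 88542029 to 88548300, Prom2 (ENSMUSG00000027376.15) on chromosome 2 from 127526473 to 127541467 and Snai1 (ENSMUSG00000042821.7) on chromosome 2 from 167538195 to 167542814. Epcam (ENSMUSG00000045394.9) lies on chromosome 17 from 87635979 to 87651129, Cldn6 (ENSMUSG00000023906.3) on chromosome 17 from 23679249 to 23682446, Vim (ENSMUSG00000026728.9) on chromosome 2 from 13573927 to 13582826 and Cdh2 (ENSMUSG00000024304.14) on chromosome 18 from 16588877 to 16809246. Grhl2 overlaps the antisense gene Gm16136, which had 130 counts over all 8 libraries against 334 to 1696 for Grhl2 in single libraries, and without a stated strand setting their reads cannot be told apart.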

How the data were processed

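RNA was measured by poly(A)-selected sequencing in 8 libraries of mouse R1 cells. Per the file headers and its values, the deposited table gives raw whole-number counts for each gene. Per the submitters' processing notes, HISAT2, featureCounts, DESeq2 and the build mm10 were used. The sources used here give no strand setting and no rule for multimapping reads. The table also lists exon length per gene, per the file headers. Gene symbols were matched by Ensembl ID, with the version removed, to GENCODE M21 (55141 of 55401 IDs). Libraries held 12119763 to 16228426 counts.

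Genes were kept by edgeR's filterByExpr (17125), scaled with TMM factors and fitted with 1 mean per group over all 8 libraries by edgeR's quasi-likelihood test, with Benjamini-Hochberg adjustment over all genes tested and calls at an adjusted p below 0.05. The SE is the log2 fold change divided by the square root of its F statistic. CPM uses TMM-adjusted library sizes, and CPM per kb divides it by exon length. The fit was tested on simulated data. The software was edgeR 4.0.16 with limma 3.58.1 under R 4.3.3, and for the alternative DESeq2 1.42.0.

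The 10 genes, the lists and their tests were chosen with earlier results of these data known, and the liver list was written after values were seen. The text names all 10 genes, a set of relatives and regulators, up to 4 genes per list and comparison with the smallest adjusted p below 0.05 (not all are printed for EBs against ESCs, and some genes the rule names are not reported here), and the 3 genes closest in profile to Cdh1 and to Cdh2 (log2 of CPM plus 0.5). Acta2, Tagln, Postn and Col3a1 were named after their counts were seen. Alternatives were median-of-ratios factors, library totals, no filter, a filter at a mean of 1 CPM, a block for the replicate number, only the groups compared, DESeq2, removal of each library's GC trend (a spline with 5 degrees of freedom) with and without the block, and each library left out.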

Additional observations from a re-analysis of the deposited data

Results flagged for a closer look

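In 5 genes of the longer lists the effect of the knockout differed between EBs and ESCs by the test of the difference in edgeR's quasi-likelihood fit, and none of the 10 genes was among them. Tfap2c had a difference of 1.85 ± 0.22 on the log2 scale (adjusted p = 0.00624), with a knockout effect of -2.02 in ESCs and -0.17 in EBs. Fn1 had a difference of 1.09 ± 0.20 (adjusted p = 0.0296), with -0.997 in ESCs and 0.10 in EBs. Sparc had -1.06 ± 0.11 (adjusted p = 0.00389), with a rise of 1.96 in ESCs and 0.90 in EBs. Loxl2 had -0.93 ± 0.17 (adjusted p = 0.0288), with 1.66 in ESCs and 0.74 in EBs. Cd44 had -2.15 ± 0.40 (adjusted p = 0.03), with 2.27 in ESCs and 0.12 in EBs. All 5 kept their direction with each library left out in turn, while the call stood in 5 of 8 such fits for Sparc, 4 for Tfap2c and 2 each for Fn1, Loxl2 and Cd44. Sparc was no longer called without control EB replicate 2 (0.0725), control ESC replicate 1 (0.0983) or control ESC replicate 2 (0.105), and the Tfap2c call without any one control library (0.0675 to 0.114). Fn1 (0.058 to 0.25), Loxl2 (0.0954 to 0.253) and Cd44 (0.0742 to 0.243) were called only where a knockout ESC library was the one left out, and Fn1 missed the threshold with a filter at a mean of 1 CPM (0.0506).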

How the results depend on the processing

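Over the 5 comparisons the 10 genes gave 32 calls out of 50. None of these 50 results changed sign between the main fit and an alternative where either fit called it. Uncalled results did change sign with 1 library left out. For the knockout in EBs these were Epcam (log2 difference -0.07 to 0.01) and Vim (-0.02 to 0.18). For the difference between stages they were Cdh2, Rab25, Prom2, Vim and Snai1. The number of the 10 genes called, 7 for the knockout in ESCs, 6 for the knockout in EBs, 9 over EB culture in control cells and 10 in knockout cells, stayed within 1.5 times of this in every alternative that kept all libraries, except that it was 6 in knockout cells with only the knockout libraries fitted. The difference of the knockout effect between stages had 0 calls, and 1 with the GC trend removed, with the GC trend removed and the replicate block, or without the low-count filter (Cldn6 in each). With 1 library left out, the counts ranged from 4 to 8, 1 to 8, 6 to 9, 6 to 9 and 0 to 2 in that order. The low end came without control ESC replicate 2, control EB replicate 1, control EB replicate 1 and knockout EB replicate 2, and leaving out a knockout ESC library gave 2 for the difference. Such a fit takes the lone library to vary like the other groups.

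Same-numbered libraries did not deviate together (correlations of deviations from -0.0886 to 0.0227), so the numbers are not taken as pairs. With the replicate block the 10 genes had 7 calls for the knockout in ESCs and 4 in EBs, where Grhl2 (adjusted p = 0.0744) and Snai1 (0.0572) no longer passed; outside the 10, Zeb1 in EBs was lost (0.0587) and Grhl1 in ESCs was gained (0.0459).

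Over all genes, the counts that moved by more than 1.5 times with all libraries kept were as follows. For the knockout in ESCs, 2483 (1421 higher and 1062 lower) became 3959 (1885 higher and 2074 lower) with the GC trend removed, 3875 with the block as well and 1358 with only the ESC libraries. For the knockout in EBs, 1164 became 2495, 2277 and 2720 in that order, and 2094 without the filter. For EBs against ESCs with only the groups compared, 3121 became 5571 in control and 2627 became 818 in knockout cells. For the difference, 237 became 707 and 672 with the GC trend removed, 704 without the filter and 364 with DESeq2. Over EB culture in knockout cells, 1410 genes were called higher and 1217 lower, but 1137 and 1567 with scaling by library totals. Leaving out 1 library gave 756 to 4729, 236 to 3127, 830 to 5512, 843 to 5485 and 0 to 2040 calls for the 5 comparisons. For the knockout in ESCs, with 1 library left out, Nectin2 ranged from -0.53 to 0.28 (-0.06 with all) and Llgl2 from -0.50 to 0.35 (-0.01 with all), the upper ends, both called, without knockout ESC replicate 2. The causes were not tested. Depth limits Prom2, Rab25, Cdh2 and Snai1 most, which had as few as 2, 15, 25 and 23 counts in a library.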
